A study of Mus musculus with 12 samples.

Results

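The 10 genes described here, Aldh3a1, Nccrp1, Anxa8, Efemp1, Clec3b, Cryab, Tinagl1, Serpina3n, Hbb-y and Cd34, were high at day 4 of reprogramming and low in both the starting fibroblasts and the pluripotent end state. They were picked from a table of 40384 Ensembl gene IDs for a mean log2(FPKM + 1) in D4 above those of MEF and iPSC. Day 4 against MEF and day 4 against iPSC are therefore given as a description of the set, without a test. The study sequenced polyadenylated RNA of mouse cells in 4 groups of 3 libraries. MEF libraries came from embryonic fibroblasts of male homozygous 4F2A embryos at midgestation, which carry doxycycline-inducible transgenes of the reprogramming factors Oct4, Sox2, Klf4 and Myc. D4 libraries came from such cells at day 4 under OE-NC, the overexpression control, and their cell type is still labelled MEF. The D4_DUX libraries carry the same time label with the treatment OE-DUX, and the treatment text of all samples gives 48 h of overexpression. iPSC libraries came from induced pluripotent stem cells. The growth text, with LIF and 2 μg/mL doxycycline, is shared by all samples, MEF and iPSC included.

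When fibroblasts are reprogrammed, fibroblast genes are shut down and an epithelial state appears before the endogenous pluripotency network switches on. Cells on the way can express genes that belong to neither end state. The 10 genes form no single pathway: they encode an enzyme and other intracellular proteins known from surface epithelia, proteins secreted into the extracellular matrix or the blood, a small chaperone, a globin of the embryo and a surface mucin of blood progenitors and vessels.

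The libraries held 22530000 to 28130000 fragments each, estimated from the value of 1 fragment in the table, and libraries of a group correlated across genes at r = 0.9936 to 0.9966. The labels do not say whether the 3 libraries of a group are separate cultures, so p-values measure the spread between these libraries, which may be technical. Duxf3, the annotated Dux gene (ENSMUSG00000075046), was listed at 0 in the 3 libraries labelled D4_DUX and reached at most 1.75 estimated fragments in any library, below a floor of 3 fragments (0.0395 to 0.0494 FPKM). It did not carry the label's change, so directions below are those of the libraries labelled D4_DUX. Pluripotency markers summed to 1538 to 1706 FPKM in iPSC, 0.569 to 1.24 in MEF, 106 to 133 in D4 and 162 to 172 in D4_DUX. Most of the day 4 sums came from Pou5f1 (Oct4) and Sox2. In MEF, D4 and D4_DUX, Pou5f1 was at 0, 51.6 and 72.3 FPKM and Sox2 at 0.449, 67.4 and 95.1. The part of the transgenes in these levels was not tested. Fibroblast markers summed to 6486 to 6725 FPKM in MEF, 3774 to 3906 in D4, 3113 to 3179 in D4_DUX and still 929 to 1165 in iPSC. The part of these fibroblast transcripts in the iPSC levels of the 10 genes was not tested. In bulk RNA, fewer cells of a type and less RNA per cell cannot be told apart, and this holds for every level below.

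Summed over the 10 genes, the level was 93.4 to 95.7 FPKM in MEF, 1782 to 1896 in D4, 2258 to 2306 in D4_DUX and 87.8 to 100 in iPSC. These sums made up 0.0298 to 0.031% of all FPKM in MEF, 0.584 to 0.598% in D4, 0.733 to 0.751% in D4_DUX and 0.028 to 0.0321% in iPSC. Every gene of the set was higher in each D4 and D4_DUX library than in each MEF and iPSC library, as the choice of the set fixes for D4. Below that shared outline the genes fell into 2 kinds. Aldh3a1, Nccrp1, Clec3b and Hbb-y were near 0 in both end states, whereas Anxa8, Efemp1, Cryab, Tinagl1, Serpina3n and Cd34 had a readable level in all 12 libraries and were multiplied at day 4.

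**Figure D1:**
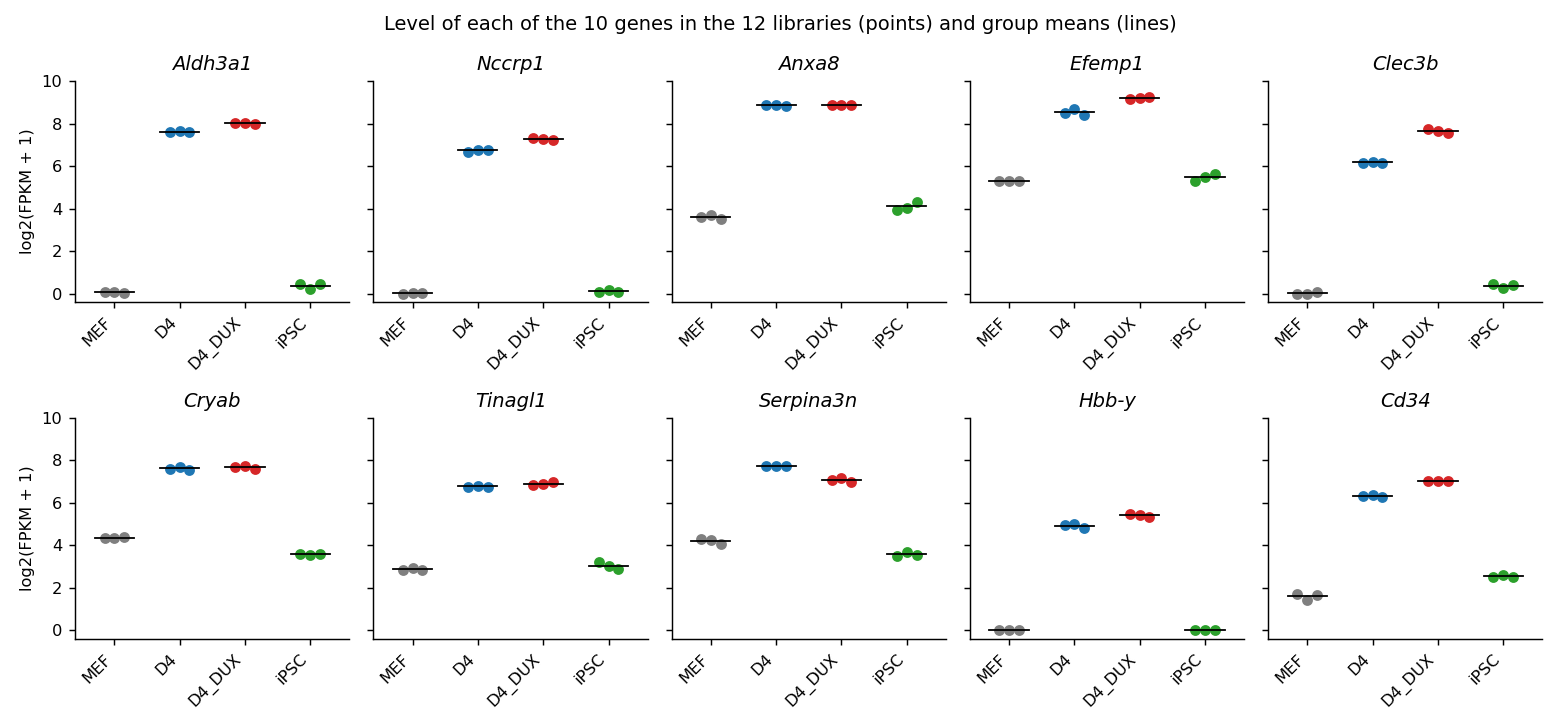
Level of each of the 10 genes, as log2(FPKM + 1), in the 12 libraries (points) and as group means (lines), with the groups MEF, D4, D4_DUX and iPSC along each horizontal axis. Aldh3a1, Nccrp1, Clec3b and Hbb-y lie at or near 0 in MEF and iPSC, and Serpina3n is the gene whose D4_DUX points lie below its D4 points.

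Genes known from surface epithelia included Anxa8, the member with the highest day 4 level. Aldh3a1 (ENSMUSG00000019102), an aldehyde dehydrogenase that is a major soluble protein of the cornea and a classical target of the aryl hydrocarbon receptor, lies on chromosome 11 from 61207537 to 61218421 on the plus strand (GRCm38), in 12 exon blocks. Its level was 192, 198 and 193 FPKM in the D4 libraries, 0.0457, 0.0439 and 0.0183 in MEF and 0.364, 0.171 and 0.363 in iPSC. The 3 MEF libraries together held 5 estimated fragments of it. The ratio of D4 to MEF was 5597 (95% counting interval 2398 to 17239), and that of D4 to iPSC, where 43.5 fragments were found, was 646 (480 to 891). Such intervals cover counting error only. Nccrp1 (ENSMUSG00000047586, chromosome 7, 28543596 to 28547254, minus strand, 6 exon blocks) encodes an F-box-associated-domain protein of squamous epithelia. It stood at 101, 107 and 108 FPKM in D4, at 0, 0.0278 and 0.0232 in MEF and at 0.0543, 0.135 and 0.0373 in iPSC. With 2 fragments in the 3 MEF libraries, the ratio of D4 to MEF was 6004 (1662 to 49581), and the ratio to iPSC was 1418 (734 to 3188). Nccrp1 lies inside Samd4b, which is on the same strand and was itself at 23.5 FPKM in MEF, 55.6 in D4, 57.1 in D4_DUX and 30.8 in iPSC. The sources used here do not give how fragments of both genes were assigned.

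Anxa8 (ENSMUSG00000021950, chromosome 14, 34085981 to 34100571, plus strand, 12 exon blocks), a calcium-dependent phospholipid-binding annexin of stratified epithelia, was the most abundant of the 10 genes in D4, at rank 76 of all genes in the table. Its level was 469, 475 and 458 FPKM in D4, 11.2, 12 and 10.3 in MEF and 14.1, 15.5 and 19.1 in iPSC, so D4 was 41.8-fold above MEF and 28.8-fold above iPSC. A gene on the opposite strand across the Anxa8 locus, A630023A22Rik, ran the other way, at 0.818 FPKM in MEF, 0.0655 in D4 and 0.682 in iPSC.

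Promoter windows, from 250 bases before to 50 after the start site in the RefSeq annotation of GRCm38.p6, were found for 6 of the 10 genes, with 2 start sites for Tinagl1. Aldh3a1, Nccrp1, Clec3b and Cryab had no entry. Both strands of the 7 windows were searched for 10 short motifs: the TATA box (TATAAA), the CCAAT box (CCAAT), the CACCC box (CCACCC), the AP-1 site (TGANTCA), the Myc E-box (CACGTG), the GATA site (AGATAA), the TEAD site (CATTCC), the C/EBP site (TTGCNNAA), the Sox site (CATTGT) and the Oct site (ATGCNAAT). The Anxa8 window is shown because it holds the same motif at 2 places. It is chr14:34085729-34086028 on the plus strand, and capitals mark CCACCC read on the opposite strand, with first bases 109 and 40 before the start site (positions -109 and -40).
Anxa8: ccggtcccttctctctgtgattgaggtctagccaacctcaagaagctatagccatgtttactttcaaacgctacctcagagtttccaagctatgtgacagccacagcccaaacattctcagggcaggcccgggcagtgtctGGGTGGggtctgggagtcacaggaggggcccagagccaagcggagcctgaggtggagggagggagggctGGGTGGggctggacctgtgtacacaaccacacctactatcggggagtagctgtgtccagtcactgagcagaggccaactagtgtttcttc
The CACCC box, known to bind Klf family factors, reads CCACCC; these letters occur in 31.5% of the 32851 windows of the same length and were in those of Anxa8, Cd34 and Hbb-y here. In Cd34 it lies 20 bases after the start site. A match is only a run of letters, no match in these windows overlapped another, and binding was not measured.

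Secreted proteins made up 4 of the set. Efemp1 (ENSMUSG00000020467, chromosome 11, 28853204 to 28926743, plus strand, 11 exon blocks) encodes fibulin-3, a glycoprotein of basement membranes and elastic tissue. It was the member with the highest level in the end states, at 37.7, 38.4 and 38.8 FPKM in MEF and 38.5, 44.2 and 47.6 in iPSC. In D4 it stood at 365, 404 and 339 FPKM, 9.63-fold above MEF and 8.5-fold above iPSC. Its window (chr11:28852955-28853254, plus strand) is shown for its AP-1 letters, which 7.81% of all windows hold. Capitals mark TGANTCA at -154 and TTGCNNAA, read on the opposite strand, at -218 (in 10.8% of all windows).
Efemp1: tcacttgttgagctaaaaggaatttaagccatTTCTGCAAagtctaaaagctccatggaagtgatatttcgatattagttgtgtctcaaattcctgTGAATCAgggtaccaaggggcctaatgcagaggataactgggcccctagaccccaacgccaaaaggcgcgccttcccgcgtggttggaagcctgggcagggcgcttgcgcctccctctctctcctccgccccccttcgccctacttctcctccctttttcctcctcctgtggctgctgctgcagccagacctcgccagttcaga
Tinagl1 (ENSMUSG00000028776, chromosome 4, 130164454 to 130175122, minus strand, 15 exon blocks) encodes a matricellular protein of basement membranes related to the tubulointerstitial nephritis antigen. Its level was 107, 111 and 107 FPKM in D4, 6.18, 6.6 and 6.22 in MEF and 8.29, 7.04 and 6.43 in iPSC, which makes D4 17.1-fold above MEF and 14.9-fold above iPSC. The window of its upstream start site (chr4:130175073-130175372, minus strand) also holds AP-1 letters, and capitals mark TGANTCA at -174 and CATTCC at -149. CATTCC is in 14.7% of all windows.
Tinagl1: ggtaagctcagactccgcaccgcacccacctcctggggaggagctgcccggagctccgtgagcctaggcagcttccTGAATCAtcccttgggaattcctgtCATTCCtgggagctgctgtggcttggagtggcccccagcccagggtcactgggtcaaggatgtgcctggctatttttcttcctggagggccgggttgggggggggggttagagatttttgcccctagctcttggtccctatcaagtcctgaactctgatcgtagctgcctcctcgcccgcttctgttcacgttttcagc

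Clec3b (ENSMUSG00000025784, chromosome 9, 123150946 to 123157432, plus strand, 3 exon blocks) encodes tetranectin, a secreted lectin-like protein that binds plasminogen. It was listed at 0, 0 and 0.0358 FPKM in MEF and at 0.356, 0.188 and 0.307 in iPSC, against 69.5, 73.2 and 70.8 in D4. The MEF value rests on 1 fragment in 3 libraries, which gives a ratio of D4 to MEF of 5237 with a counting interval of 940 to 206904. Against iPSC, with 21 fragments, the ratio was 250 (164 to 405). Serpina3n (ENSMUSG00000021091, chromosome 12, 104406729 to 104414329, plus strand, 5 exon blocks) encodes a secreted inhibitor of serine proteases that belongs to the acute phase response of the mouse. It stood at 211, 211 and 214 FPKM in D4, 18.5, 17.9 and 15.9 in MEF and 10.2, 11.8 and 10.7 in iPSC, or 12.1-fold above MEF and 19.4-fold above iPSC. Serpina3n is 1 of a cluster of near-identical genes, among which fragments may have been divided, and its window held none of the 10 motifs.

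The chaperone of the set is Cryab (ENSMUSG00000032060, chromosome 9, 50751325 to 50756636, plus strand, 5 exon blocks), alpha-B crystallin, a small heat shock protein of lens and muscle. Its level was 194, 204 and 188 FPKM in D4, 19.2, 19.0 and 19.9 in MEF and 11.2, 10.5 and 10.9 in iPSC. D4 was thus 10.1-fold above MEF and 18-fold above iPSC, and MEF lay above iPSC in every library, as it did for Serpina3n. In Anxa8, Cd34 and the near-silent Aldh3a1, Nccrp1 and Clec3b the iPSC libraries lay above MEF, though by few fragments in the latter. Cryab overlaps Hspb2, another small heat shock gene on the opposite strand, which was at 0.88 FPKM in MEF, 4.05 in D4, 2.74 in D4_DUX and 0.126 in iPSC. Without knowledge of whether counting used the strand, reads of the overlapping stretch cannot be told apart.

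The remaining pair is known from blood and vessels. Hbb-y (ENSMUSG00000052187, chromosome 7, 103851749 to 103853216, minus strand, 3 exon blocks) encodes the epsilon-y chain of embryonic haemoglobin, normally made in primitive red cells. It was listed at 0 in all 6 MEF and iPSC libraries and at 29.6, 31.1 and 26.7 FPKM in D4, from 420.25 to 489.5 estimated fragments a library. Taking 3 fragments per library as the floor, D4 was at least 151-fold higher than MEF and at least 152-fold higher than iPSC. The Hbb-y window (chr7:103853158-103853457, minus strand) is shown because its CCACCC at -112 and CCAAT at -83 are the letters of the classical globin promoter boxes. CCAAT is in 37.4% of all windows, and CATTGT, here at -43, is in 12.6%. Capitals mark these 3 matches.
Hbb-y: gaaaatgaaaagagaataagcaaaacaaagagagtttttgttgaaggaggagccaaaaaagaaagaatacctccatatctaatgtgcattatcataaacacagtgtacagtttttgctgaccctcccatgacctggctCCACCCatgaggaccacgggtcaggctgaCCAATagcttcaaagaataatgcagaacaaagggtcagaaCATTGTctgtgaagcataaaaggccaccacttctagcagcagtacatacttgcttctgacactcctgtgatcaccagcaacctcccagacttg
The window held 1 CpG dinucleotide, against a median of 7 over all windows. Of the 7 windows of the set, 5 held under 10 CpG, as did 56.5% of all windows. Cd34 (ENSMUSG00000016494, chromosome 1, 194938819 to 194961279, plus strand, 7 exon blocks) encodes a surface sialomucin of haematopoietic progenitors, endothelium and some stromal cells. It stood at 78.5, 82.0 and 76.9 FPKM in D4, 2.21, 1.69 and 2.19 in MEF and 4.75, 5.0 and 4.75 in iPSC, 38.9-fold above MEF and 16.4-fold above iPSC. An antisense gene across it, Gm16897, followed the same outline, at 0.496 FPKM in MEF, 18.7 in D4, 30.2 in D4_DUX and 1.16 in iPSC. Whether part of these antisense fragments belongs to Cd34 was not tested. The TATA box, Myc E-box, GATA and Oct letters were in 0 of the 7 windows and in 13.6, 7.15, 11.2 and 3.15% of all windows. This says only that these exact letters are not there, since variant spellings of a motif were not searched.

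In order of D4 level the genes ran Anxa8, Efemp1, Serpina3n, Cryab, Aldh3a1, Tinagl1, Nccrp1, Cd34, Clec3b and Hbb-y, with means from 468 ± 8.6 down to 29.2 ± 2.27 FPKM (SD, n = 3). FPKM is scaled by gene length, so levels can be set side by side between genes. The libraries of Cryab and Aldh3a1 overlapped, as did those of Tinagl1 and Nccrp1, and the other neighbours in this order did not. Anxa8 and Efemp1 ranked 76 and 107 among all genes of the table, and the ranks of the other members went down to 635 for Clec3b and 1688 for Hbb-y. In D4_DUX the order was Efemp1, Anxa8, Aldh3a1, Cryab, Clec3b, Nccrp1, Serpina3n, Cd34, Tinagl1 and Hbb-y. Clec3b moved from rank 635 to 212 in the table, and Serpina3n from 201 to 330. The neighbours Cryab and Clec3b, and Serpina3n and Cd34, overlapped there.

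The comparison of D4_DUX with D4 was not used to choose the set, although its D4 libraries were. It concerns the study's question of what added Dux does in early reprogramming. Of the 10 genes, all of which passed the filter on low values, 6 were higher in the libraries labelled D4_DUX, 1 was lower and 3 did not pass the test (limma, Benjamini-Hochberg adjusted p under 0.05 over 17114 genes). Over all genes tested, 35.4% were called, 20.1% higher and 15.4% lower. The median log2 fold change of the 10 genes was 0.45, against 0.02 over all genes tested. Groups did not overlap in 8 of the 10 genes, the exceptions being Anxa8 and Cryab, and in 50.5% of all genes tested. The count of higher members was 5 with a pseudocount of 0.1 in place of 1, which ends the call of Aldh3a1 (adjusted p = 0.0948 by limma), and 7 in the 2 settings that call Tinagl1.

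Clec3b moved most, from 69.5, 73.2 and 70.8 FPKM in D4 to 213, 200 and 188 in D4_DUX. All 3 D4_DUX libraries lay far above the D4 libraries, with means of 71.1 ± 1.86 and 200 ± 12.3 FPKM (SD, n = 3), a 2.82-fold difference. Its log2 fold change was 1.48 (95% interval 1.36 to 1.60, adjusted p = 5.64e-08 by limma). Cd34 rose from 78.5, 82.0 and 76.9 to 130, 127 and 128 FPKM, with a log2 fold change of 0.69 (0.56 to 0.82, adjusted p = 1.01e-05 by limma). Efemp1 rose from 365, 404 and 339 to 565, 592 and 598 FPKM, a log2 fold change of 0.67 (0.50 to 0.83, adjusted p = 6.66e-05 by limma). In FPKM this was the largest step of the set, 216 FPKM between the means, and it brought Efemp1 above Anxa8.

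The other 3 genes that rose did so by less. Nccrp1 went from 101, 107 and 108 to 161, 152 and 148 FPKM, a log2 fold change of 0.54 (0.43 to 0.64, adjusted p = 1.06e-05 by limma). Hbb-y went from 29.6, 31.1 and 26.7 to 43.0, 41.3 and 39.8 FPKM, or 0.49 on the log2 scale (0.38 to 0.61, adjusted p = 4.91e-05 by limma). The embryonic globin transcript was thus 1.42-fold higher, with no overlap between the groups. Aldh3a1 went from 192, 198 and 193 to 261, 259 and 250 FPKM, a log2 fold change of 0.40 (0.28 to 0.52, adjusted p = 0.000202 by limma).

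Serpina3n was the member that fell. It stood at 211, 211 and 214 FPKM in D4 and at 134, 141 and 124 in D4_DUX, so all 3 D4_DUX libraries lay below the D4 libraries. The log2 fold change was -0.67 (-0.82 to -0.53, adjusted p = 2.27e-05 by limma), and the ratio of the means was 0.626. Other acute phase genes were counted beside it. Of the 12 tested of 16 in the table, 9 were lower in D4_DUX and 1 was higher, with a median of -0.49. Saa3, serum amyloid A3, was at 293 FPKM in D4 and 121 in D4_DUX (log2 fold change -1.27), and Hp, haptoglobin, at 18.4 and 6.35 FPKM (-1.40). Macrophage markers moved along with these genes: 14 of 16 were lower in D4_DUX and 0 higher, and their summed level was 192 to 230 FPKM in D4 and 47.5 to 48.5 in D4_DUX. Lyz2, the macrophage lysozyme, was at 149 and 31.0 FPKM, and none of the 16 markers had a D4 mean of 0. Macrophage markers were also at 1700 to 1742 FPKM in MEF, where Serpina3n was low (15.9 to 18.5 FPKM). The part of macrophage markers in the change of Serpina3n was not tested. The acute phase list summed to 985 to 1130 FPKM in MEF, 601 to 649 in D4 and 361 to 393 in D4_DUX. Of its 12 tested genes, 7 were lower and 3 higher in D4 than MEF, whereas Serpina3n was higher in D4 than MEF.

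Anxa8, Cryab and Tinagl1 did not pass the test. Anxa8 stood at 475, 468 and 466 FPKM in D4_DUX against 469, 475 and 458 in D4, and the interval of its log2 fold change ran from -0.18 to 0.19 around 0.01. Cryab stood at 207, 208 and 193 against 194, 204 and 188 FPKM, with an interval of -0.04 to 0.14 around 0.05. Missing the test does not show that either gene was unchanged. Tinagl1 stood at 115, 118 and 123 against 107, 111 and 107 FPKM, with no overlap but a log2 fold change of 0.13 (-0.01 to 0.28, adjusted p = 0.15 by limma). It passed with voom on the recovered fragments (adjusted p = 0.0381) and with only the D4 and D4_DUX libraries in the fit (adjusted p = 0.025 by limma).

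**Figure D2:**
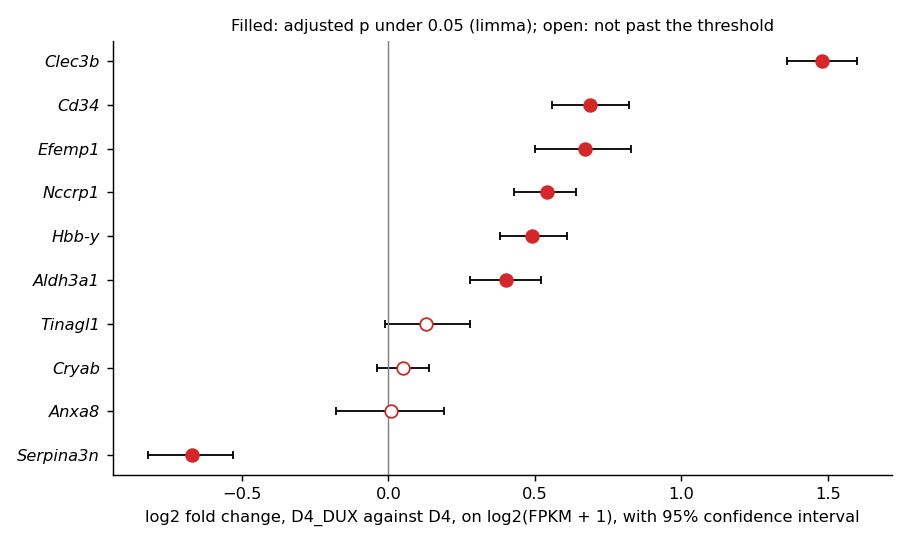
Log2 fold change of the 10 genes in D4_DUX against D4 on the log2(FPKM + 1) scale (points) with 95% confidence intervals (bars); filled points passed an adjusted p under 0.05 in limma. Clec3b stands at 1.48, 5 further genes between 0.40 and 0.69, Serpina3n at -0.67, and Anxa8, Cryab and Tinagl1 have intervals that include 0.

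The D4_DUX libraries were also set against the end states. The genes were chosen as low in these same MEF and iPSC libraries, and Aldh3a1, Nccrp1, Clec3b and Hbb-y passed the filter on low values only through the day 4 groups, so the counts are a description that the choice largely fixed. Against MEF, 10 of the 10 genes were called higher, with log2 fold changes from 2.86 for Serpina3n to 7.96 for Aldh3a1 and a median of 5.34, while 65.8% of all genes tested were called, 39.0% higher and 26.8% lower, at a median of 0.06. Against iPSC, 10 of 10 were called higher, from 3.49 to 7.64 with a median of 4.63, while 82.5% of all genes were called, 34.1% higher and 48.4% lower, at a median of -0.15. Both comparisons share the D4_DUX libraries with the comparison above.

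The 10 genes are a selection and not the top of the list. Over the 17114 genes tested, the D4 mean minus the higher of the MEF and iPSC means, on the log2(FPKM + 1) scale, put Aldh3a1 at rank 1 (7.24), Nccrp1 at 3 (6.63), Clec3b at 6 (5.81), Hbb-y at 10 (4.91) and Anxa8 at 12 (4.78). Cd34 ranked 28 (3.78), Tinagl1 32 (3.73), Serpina3n 40 (3.53), Cryab 45 (3.27) and Efemp1 59 (3.06). Thus 49 genes outside the set ranked above Efemp1. Those nearest the limit were Tnfsf9 at rank 58 (3.06), just above Efemp1, and Fam174b at rank 60 (3.05), just below it. With a difference of at least 1 on the log2 scale from both end states and both tests passed, 3.14% of the genes tested were higher in D4. Predicted-gene names (Gm15851 at rank 5, BC002163 at 9, Gm27627 at 11 and Gm27882 at 14) are left out of the names that follow. The other genes outside the set that stood highest in this order were Msln (mesothelin), at 340 FPKM in D4, Prelp, a small leucine-rich proteoglycan, at 574, and Mal, a membrane protein of epithelial and myelin transport, at 34.0. Nkain4, Itgb4 (a hemidesmosome integrin), Fam180a, Ano1 (a chloride channel), Scara5, Upk1b (a uroplakin) and Miat, a long noncoding RNA, followed, at 28.0 to 72.6 FPKM.

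**Figure D3:**
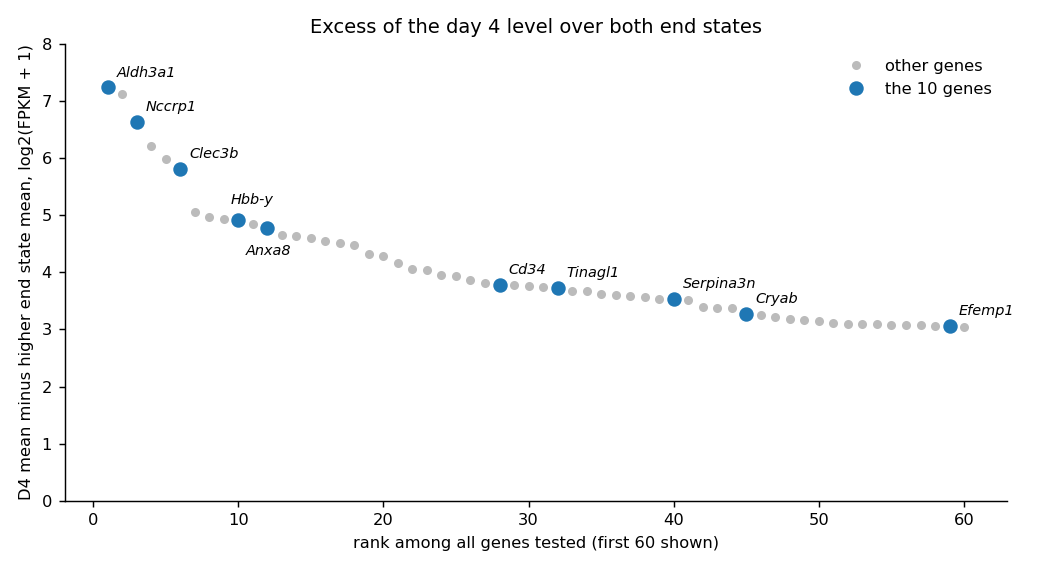
D4 mean minus the higher of the MEF and iPSC means, in log2(FPKM + 1), against rank for the 60 highest genes tested, with the 10 genes in blue and other genes in grey. Aldh3a1 is first at 7.24, and Efemp1 at rank 59 (3.06) lies at the edge of a flat stretch of similar genes.

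The genes whose pattern over the 12 libraries was most like the mean standardised pattern of the set were sought among 693 genes with a D4 mean of at least 5 FPKM and group means that spanned at least 2 on the log2 scale. They were Klk14 and Ano1 (Pearson r = 0.9994), Krtdap (0.9993), Capn5 and Krt16 (0.9992), Sbsn (0.9990), Trim16 (0.9988), Bmp6 (0.9984), Ptgs1 (0.9983) and Nkain4 (0.9980). The libraries of a group share their condition, so these values describe 4 levels more than 12 independent points. Among the members, r ran from 0.9743 for Serpina3n to 0.9998 for Nccrp1. Each member is part of the mean pattern and was chosen for its outline, so high values among members are fixed by construction. Klk14, a kallikrein protease, was at 5.14 FPKM in D4 and 6.47 in D4_DUX, and Krtdap, a keratinocyte differentiation protein, was at 11.9 and 13.0 FPKM. Sbsn, suprabasin, another protein of differentiating keratinocytes, was at 42.3 and 46.6 FPKM.

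The families of the 10 genes were next examined in D4 against MEF and D4 against iPSC, where 61.8% (34.2% higher, 27.6% lower) and 82.4% (33.9% higher, 48.5% lower) of all genes tested were called. Most relatives did not share the outline of the member. Among aldehyde dehydrogenases, 16 of 20 were tested, of which 10 were higher and 4 lower in D4 than MEF, and 8 higher and 5 lower than iPSC. Aldh1b1, a mitochondrial relative, was the family member at least 1 log2 above both, at 2.55, 8.6 and 3.06 FPKM in MEF, D4 and iPSC. Aldh1a1, at 0.993, 2.96 and 0.355 FPKM, and Aldh1a7, at 0.183, 1.15 and 0.0892, were also called higher than both. They missed that limit on the log2(FPKM + 1) scale, which understates the change of low genes. Aldh3a2, the fatty aldehyde dehydrogenase that lies 4996 bp from Aldh3a1, was at 8.22, 15.6 and 15.8 FPKM. Of 6 tested genes of the aryl hydrocarbon receptor pathway, 4 were higher and 2 lower against each end state. The receptor gene Ahr was at 4.18, 9.61 and 2.94 FPKM and its target Ugt1a6a at 0.695, 4.19 and 1.57 FPKM, each at least 1 log2 above both. Cyp1b1, the target with the highest D4 level in the list, was at 174, 89.3 and 31.3 FPKM in MEF, D4 and iPSC (log2 fold change -0.95 against MEF), and Nqo1, a quinone reductase, at 3.99, 17.7 and 11.0 FPKM. The list summed to 199 to 209 FPKM in MEF, 142 to 143 in D4 and 71.6 to 75.7 in iPSC. Cyp1b1 supplied most of this sum in MEF and D4, so its fall sets the direction of the sum. The 4 genes higher in D4 than MEF were Ahr, Tiparp, Nqo1 and Ugt1a6a. The best known target of the receptor, Cyp1a1, was at 0.0144 FPKM in D4 and 0.0289 in D4_DUX.

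Of 8 tested annexins, 6 were higher and 1 lower in D4 than MEF and 7 higher and 1 lower than iPSC. Anxa2, the most abundant of them in D4, was at 201, 318 and 69.7 FPKM in MEF, D4 and iPSC (log2 fold changes 0.66 and 2.18), and 0 annexins stood at least 1 log2 above both. Of the 5 F-box genes with the domain of Nccrp1, 1 was higher and 3 lower than MEF, and 1 higher and 2 lower than iPSC. The higher gene was Fbxo6, a ubiquitin ligase subunit that recognises glycoproteins, with log2 fold changes of 0.66 and 0.64. Of 5 tested fibulins, relatives of Efemp1, 0 were higher and 2 lower in D4 than MEF, while 5 were higher than iPSC. Fbln2, the most abundant of them, was at 540, 524 and 174 FPKM in MEF, D4 and iPSC, and Fbln1 at 71.2, 22.5 and 18.4. Fbln1 was also lower in D4_DUX, at 13.2 FPKM (log2 fold change -0.73), where Efemp1 rose.

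Small heat shock genes moved more alike. All 5 tested were higher in D4 than MEF, and 4 were higher and 1 lower than iPSC. Hspb2 and Hspb7, known from muscle, stood at least 1 log2 above both, Hspb7 at 1.31, 3.69 and 0.784 FPKM. In D4_DUX, where Cryab did not pass the test, Hspb7 fell to 1.39 FPKM (log2 fold change -0.98) and Hspb2 to 2.74 (-0.44, a call lost with a pseudocount of 0.1, adjusted p = 0.0807 by limma). Hspb1 was at 29.0, 106 and 213 FPKM in MEF, D4 and iPSC. Of 9 markers of skeletal muscle, 3 were tested, and 2 were higher and 1 lower in D4 than in each end state. The list summed to 9.58 to 11.0 FPKM in MEF, 17.9 to 19.9 in D4, 15.1 to 15.9 in D4_DUX and 11.3 to 14.4 in iPSC. Des, the muscle intermediate filament desmin, was at 5.55, 11.2 and 3.74 FPKM in MEF, D4 and iPSC, and Acta1, skeletal actin, at 3.56, 7.29 and 3.95, while Myod1, the muscle master regulator, was listed at 0 in D4. The part of these markers in the Cryab level was not tested.

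In the Serpina3 cluster, of 5 relatives of Serpina3n tested, 4 were lower and 1 was higher in D4 than in MEF, with a median of -1.53. Against iPSC, 2 were higher and 2 lower, with a median of -0.13. The relative that was higher than MEF was Serpina3m, at 0.132 and 1.8 FPKM in MEF and D4 and 4.17 in iPSC. Serpina3g was at 72.4, 23.1 and 21.1 FPKM in MEF, D4 and iPSC (log2 fold change -1.61 against MEF), and Serpina3h at 58.1 in MEF and 10.6 in D4 (-2.35). Tinag and Clec3a, the closest relatives of Tinagl1 and Clec3b, were at 0 and 0.0125 FPKM in D4. Clec11a, a more distant lectin gene, was at 2.08, 2.95 and 0.356 FPKM.

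Cd34 and its relatives shared the outline in part. Podxl, podocalyxin, a sialomucin of the same family that is found on vessels, kidney podocytes and pluripotent cells, was at 0.367 ± 0.0683 FPKM in MEF, 45.7 ± 0.538 in D4, 61.4 ± 1.73 in D4_DUX and 5.54 ± 0.0685 in iPSC (SD, n = 3). Its log2 fold changes were 5.09 against MEF, 2.83 against iPSC and 0.42 in D4_DUX against D4 (adjusted p = 2.01e-05 by limma). Podxl2 was at 1.14, 1.76, 0.868 and 0.383 FPKM, higher in D4 than in both and lower in D4_DUX (-0.56). Endothelial markers did not follow as a group. Of the 10 genes listed, 4 were tested, 2 were higher and 1 lower in D4 than MEF, and 2 were higher and 2 lower than iPSC. Tek, the angiopoietin receptor, was at 0.113 FPKM in MEF, 21.3 in D4_DUX and 2.02 in iPSC and, in D4, 3.70 log2 above MEF and 2.27 above iPSC, while Cdh5, the vessel cadherin, was at 0.00639 FPKM in D4, Pecam1 at 0.123, and Emcn and Cldn5 were listed at 0. The list summed to 2.9 to 3.57 FPKM in MEF, 15.7 to 15.9 in D4, 21.8 to 24.5 in D4_DUX and 34.9 to 35.7 in iPSC. Tek supplied most of this sum in D4 and D4_DUX, and Pecam1, at 24.5 FPKM, most of it in iPSC. The part of the list in the Cd34 level was not tested.

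Hbb-y stood alone among the globins analysed. None of the other 9 globin genes in the table passed the filter, and Hbb-bt, Hbb-bs and Hbb-bh2 are not analysed here. Hbb-bh1, the neighbouring embryonic globin 8585 bp away, had at most 2 estimated fragments in any library and Hba-x, the embryonic alpha-like chain, was listed at 0 in D4 and D4_DUX. Erythroid markers summed to 0.867 to 1.26 FPKM in D4, 0.715 to 1.06 in D4_DUX, 3.17 to 3.75 in MEF and 1.95 to 2.22 in iPSC, with 1 of the 10 in the table tested. In D4 the erythroid master factors Gata1 and Klf1 were at 0.0534 and 0.0175 FPKM and the anion exchanger gene Slc4a1 at 0.00728 FPKM. The D4 means of the 10 markers ran from 0.0052 FPKM for Epb42, a red cell membrane protein, to 0.36 FPKM for Nfe2, a factor also of megakaryocytes.

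**Figure D4:**
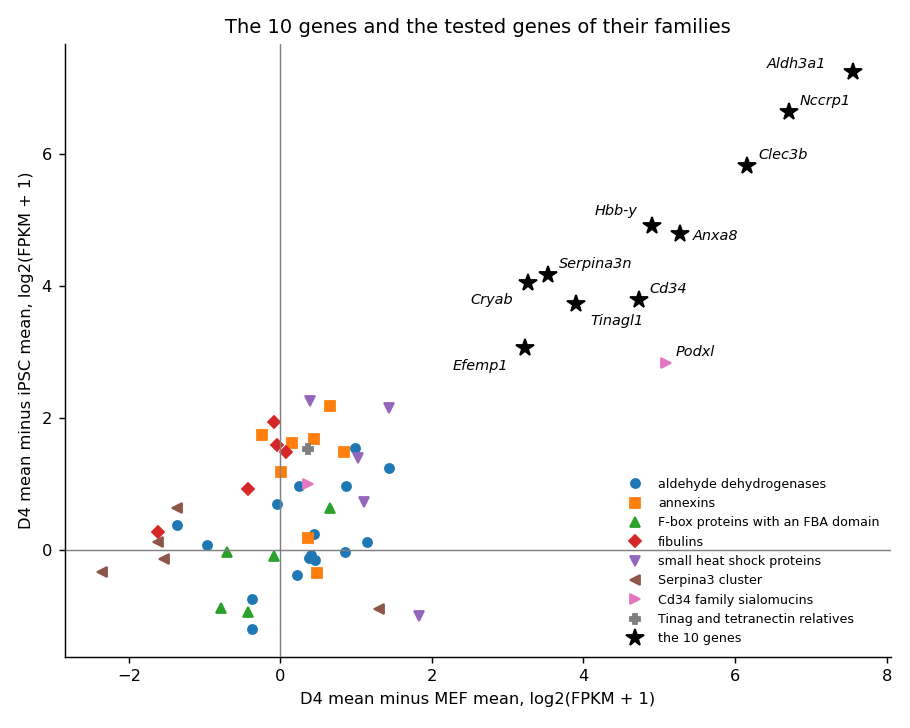
D4 mean minus MEF mean (horizontal) and D4 mean minus iPSC mean (vertical), both in log2(FPKM + 1), for the 10 genes (stars) and the tested genes of their families (symbols by family). The stars lie at 3.06 or more on both axes, and of the relatives Podxl (5.09 and 2.83) lies nearest to them.

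Cd34, Clec3b and Efemp1 are also known from the adventitial fibroblasts around vessels, and that list of 14 genes was counted. All 14 were tested, 12 were higher and 2 lower in D4 than MEF, 12 higher and 1 lower than iPSC, and 6 higher and 3 lower in D4_DUX than D4. Pi16 and Col15a1, with means under 1 FPKM in MEF and iPSC, passed the filter on low values only through the day 4 groups. The list summed to 642 to 669 FPKM in MEF, 1538 to 1607 in D4, 2261 to 2279 in D4_DUX and 273 to 324 in iPSC. Pi16, Ly6a, Ly6c1 and Sema3c stood at least 1 log2 above both end states. The 2 genes lower than MEF were Pdgfra and Dpt, which was at 39.7 FPKM in MEF and 7.24 in D4. The 1 gene lower than iPSC was Dpp4, at 2.35 FPKM in D4 and 22.6 in iPSC. Dpp4, Pdgfra and Mfap5 were the 3 genes lower in D4_DUX than D4. Pi16, a marker of such fibroblasts, was at 0.117, 9.11, 15.3 and 0.182 FPKM in MEF, D4, D4_DUX and iPSC, and Ly6a, the stem cell antigen Sca-1, at 46.2, 554, 1037 and 35.1 FPKM. Ly6c1, a surface protein of vessels and myeloid cells, was at 3.92, 55.0, 235 and 1.32 FPKM, with a log2 fold change of 2.08 in D4_DUX against D4. In the general fibroblast list of 10 genes, 2 were higher and 7 lower in D4 than MEF, and 9 higher and 0 lower than iPSC. Pdgfra, which both lists hold along with Thy1, was at 85.2 FPKM in MEF and 17.5 in D4.

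Markers of surface linings were counted as well. Of the 10 mesothelial markers, all tested, 9 were higher and 0 lower in D4 than MEF, 9 higher and 1 lower than iPSC, and 7 higher and 0 lower in D4_DUX than D4. Over all genes tested, 34.2, 33.9 and 20.1% were called higher in these comparisons. Upk3b, Upk1b, Gpm6a and Muc16, with means under 1 FPKM in MEF and iPSC, passed the filter on low values only through the day 4 groups. These mesothelial counts were therefore also partly fixed by the filter. The list summed to 11.1 to 11.7 FPKM in MEF, 422 to 448 in D4, 599 to 611 in D4_DUX and 11.3 to 11.8 in iPSC, close in shape to the sums of the 10 genes. Msln supplied most of this, at 340 FPKM in D4 and 469 in D4_DUX (log2 fold change 0.46, a call lost with a pseudocount of 0.1, adjusted p = 0.0521 by limma), with Upk3b at 30.6 and 51.1 FPKM and Upk1b at 43.3 and 54.0. Wt1, the transcription factor of mesothelium, was at 1.36, 2.96 and 0.844 FPKM in MEF, D4 and iPSC, and none of the list was at 0 in D4. Of 19 markers of stratified and corneal epithelium, 10 were tested, 9 were higher and 0 lower than MEF, 7 higher and 2 lower than iPSC, and 7 higher and 2 lower in D4_DUX than D4. Krt14, Krt13, Krt16 and Sprr1a, with means under 1 FPKM in MEF and iPSC, passed the filter on low values only through the day 4 groups. Krt6a and Krt17 had a group mean of at least 1 FPKM only in D4_DUX. The counts of higher genes in this list were therefore partly fixed by the filter. Krt14, Krt13, Krt16, Sprr1a and Sfn stood at least 1 log2 above both, Krt14, a basal keratin, at 0.0599, 20.3, 49.6 and 0.0925 FPKM in MEF, D4, D4_DUX and iPSC. The defining basal factor Trp63 was at 0.0723 FPKM in D4, the corneal keratin Krt12 at 0.00725, and Krt4 was listed at 0. This list summed to 1.7 to 2.3 FPKM in MEF, 71.6 to 77 in D4, 99.7 to 115 in D4_DUX and 129 to 144 in iPSC. Cdh1, the epithelial cadherin, was at 2.64 FPKM in D4 and 69.4 in iPSC, and Epcam, an epithelial adhesion protein, at 0.114 and 53.0 FPKM. The part of either list in the levels of Aldh3a1, Nccrp1, Anxa8 and the other genes was not tested.

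**Figure D5:**
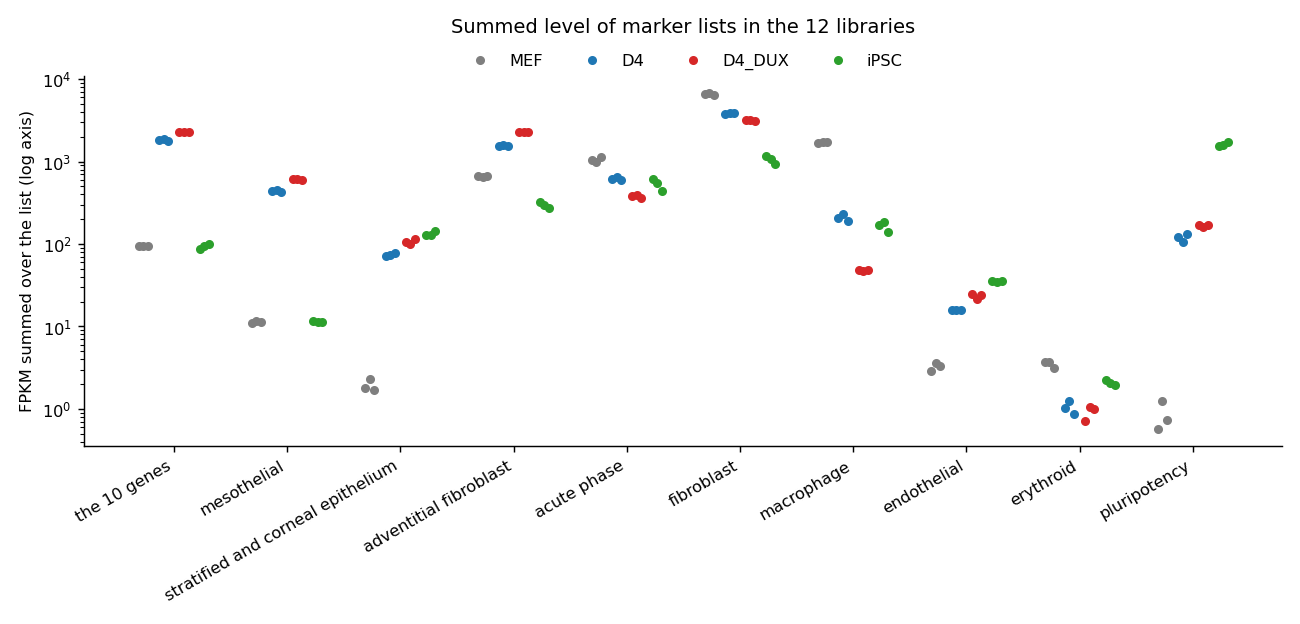
FPKM summed over each list (log axis) in the 12 libraries, coloured by group, for the 10 genes and for lists of cell type markers and related genes. The 10 genes, the mesothelial list and the adventitial fibroblast list share a low, high, higher, low order over MEF, D4, D4_DUX and iPSC, whereas macrophage and fibroblast markers are highest in MEF and pluripotency markers in iPSC.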

How the data were processed

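Polyadenylated RNA of 12 libraries was measured. The authors deposited 1 gene table in FPKM (fragments scaled by gene length and library total). The build was mm10, per the submitters' processing notes. The sources used here do not name the aligner, the annotation or a strand setting. Of 40384 IDs, 40225 (99.6%) matched GENCODE M21, from which names, positions and exon lengths were taken. No 2 of the 12 columns were identical (0 of 66 pairs). Fragments were recovered as FPKM times exon length over the step of each library. They came out whole within 0.01 for 42.0 to 43.7% of the low positive values, the only ones checked. Fragment numbers are therefore estimates, and floors and intervals built on them cover counting error only.

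The test was limma 3.58.1 in R 4.3.3 on log2(FPKM + 1), with 4 group means over all 12 libraries and a variance trend. Each gene had 1 variance, shared by the 4 groups. Where a gene is near 0 in MEF and iPSC, these libraries add little spread, so its intervals and p-values may be too small. The 17114 genes that reached an FPKM of 1 in 3 or more libraries entered, and calls were made at a Benjamini-Hochberg adjusted p under 0.05. Genes near 0 in MEF and iPSC entered only through the day 4 groups. Counts of such list genes as higher at day 4 were therefore partly fixed by this filter. Fold changes on this scale understate the change of low genes. Intervals are 95% confidence intervals. The scripts were tested on simulated data. Python 3.11.15 was used for sums, ranks, motifs and figures.

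The 10 genes and all lists were chosen with earlier results of these data known. Named were the 10 genes, up to 4 genes of each list by level, those at least 1 log2 above both end states, the 10 most similar patterns and up to 10 genes ranked between the members. Genes named outside this rule, chosen after their values were seen, were neighbours, overlapping genes and list members with defining roles. Also named after their values were seen were list members that ran against most of their list, showed the effect of the filter or missed a limit. Alternatives changed the pseudocount, filter, scaling, unit, variance prior, samples in the fit and replicate block, or left out each library in turn. The labels name no batch.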

Additional observations from a re-analysis of the deposited data

How the results depend on the processing

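The members called higher in D4_DUX than D4 numbered 5 to 7 over the alternatives tried (6 throughout when each library was left out), and 1 was lower throughout. Of all genes in each fit, 13.9% (no filter) to 42.9% (filter at an FPKM of 5) were called in either direction. Against MEF and iPSC, 10 were higher and 0 lower in D4_DUX under all alternatives run, which the choice of the set largely fixed. Of all genes, 32.7 to 73.9% were called against MEF and 49.5 to 87.8% against iPSC. Clec3b, Cd34, Efemp1, Nccrp1, Hbb-y and Serpina3n kept their calls and direction in D4_DUX against D4 under each of them. Anxa8, never called, changed sign from 0.01 to -0.02 with median-ratio scaling, -0.01 without D4 replicate 3 and -0.00 without D4_DUX replicate 1, and was up to 0.02 without another library. The median rank of the 10 genes, 20, was 19.5 to 20.5 with each library left out and 52.5 with a pseudocount of 0.1, a choice that lifts genes near 0 by construction. Counts of list genes stayed within 1.5 times. Median-ratio scaling moved the median of all genes in D4 against iPSC from -0.16 to -0.01.

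No shared shift was seen between libraries with the same replicate number: deviations of same-numbered D4_DUX and D4 libraries correlated at 0.0246, 0.0537 and -0.02. This cannot show whether same-numbered libraries came from the same culture or preparation. With the replicate number as a block, 6 members were higher and 1 lower in D4_DUX than D4, and 33.2% of all genes were called, against 35.4% without it.

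Depth limits the near-silent genes. Aldh3a1, Nccrp1 and Clec3b had 5, 2 and 1 fragments over the 3 MEF libraries, so their ratios to MEF are known only within the counting intervals given.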

Other observations

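The genes on either side of the 10 genes were also read, as the nearest protein-coding gene without overlap before and after each. Of these 20 neighbours, 10 were under 1 FPKM in all 4 group means, and 1 was at least 1 log2 higher in D4 than in both end states. That gene was Plxna2, a semaphorin receptor subunit 121950 bp from Cd34, at 1.12 FPKM in MEF, 4.35 in D4, 7.67 in D4_DUX and 0.99 in iPSC. Next to Anxa8, the genes Antxrl and Npy4r were at 0.059 and 0.0504 FPKM in D4. Next to Tinagl1, Hcrtr1 and Gm853 were at 0.185 and 0.0058 FPKM in D4. Serpina3m, 12472 bp from Serpina3n, was at 0.132 FPKM in MEF, 1.8 in D4, 1.07 in D4_DUX and 4.17 in iPSC. Neighbours were picked by position alone.

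A few further genes near the members in the order of day 4 excess had D4_DUX means well away from their D4 means. Slurp1, a secreted protein of skin, was at 11.4 FPKM in D4 and 34.8 in D4_DUX, and its relative Lypd2 at 8.05 and 21.5. Mal was at 34.0 and 75.6 FPKM, and Aqp5, a water channel of glands and cornea, at 20 and 48.7 FPKM. Bglap2, an osteocalcin gene, ran the other way, at 8.91 and 3.68 FPKM. These genes were chosen after their values were seen, and are given as means of 3 libraries with no test.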
